A study of Homo sapiens with 26 samples.

Results

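KELLY cells that carried an uninduced hairpin against RUNX1T1, called shAMB, were compared with KELLY cells that carried the empty vector (EV), both without induction. KELLY is an established line of human neuroblastoma in which the MYCN gene is amplified. The members were the 6 libraries whose labels gave these lines and the solvent DMSO, 3 per line, out of 26 libraries in the series, and all 26485 genes of the count table entered. Both lines held the same kind of lentiviral vector, F1HUTG in the labels and FH1UTG in the methods of the study, which contains green fluorescent protein and expresses its hairpin when doxycycline is added. The EV cells had that vector without a hairpin, the shAMB cells had it with the hairpin, and neither received doxycycline in the 72 h of culture. The other libraries were the doxycycline-treated cells of both lines, the cells of a line with a different hairpin (sh4) with DMSO or doxycycline, at 3 libraries a group, and 8 xenografts. The sources used here do not say whether each line was a pool of infected cells or a clone, and nothing says that replicates were separate cultures, so that p-values measure only the spread between these samples, which may be technical. The comparison asks how far apart a hairpin line and its control line stood before the hairpin was switched on.

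RUNX1T1, also known as ETO or MTG8, is a transcriptional co-repressor without DNA binding of its own, which is brought to genes by other factors and recruits corepressors and histone deacetylases. In an inducible system the hairpin is under the control of a repressor that doxycycline removes, and the uninduced line serves as the baseline. Neuroblastoma cells of the adrenergic type are held in their state by transcription factors such as HAND2 and GATA3.

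RUNX1T1 itself did not differ detectably between the uninduced shAMB and EV lines. Its level was 44.1, 39.3 and 42.4 CPM (counts scaled to a common library total) in the 3 EV libraries and 40.8, 42.0 and 39.9 in the 3 shAMB libraries. The groups overlapped, and the log2 difference of -0.04 had a 95% confidence interval of -0.15 to 0.08 (edgeR's quasi-likelihood test, Benjamini-Hochberg adjusted p = 0.776). An exact two-sided permutation test gave p = 0.6, where 3 against 3 libraries cannot go below 0.1. With doxycycline the targeted gene was not lower in the libraries labelled shAMB either, with means of 42.5 CPM in these and 37.7 in EV, a log2 difference of 0.18 (adjusted p = 0.0115). The labels of the shAMB group therefore could not be checked by a loss of RUNX1T1 transcript. The uninduced sh4 line had a mean of 34.3 CPM, with a log2 difference of -0.29 from EV (adjusted p = 0.0144), and shAMB stood 0.25 above it (adjusted p = 0.0186). Over all 18 culture libraries the gene lay between 30.1 and 44.1 CPM, from 1228 to 2522 counts. MYCN stood at 2146, 2138 and 2298 CPM in EV and at 2085, 2130 and 2170 in shAMB, a log2 difference of -0.04 ± 0.08 (SE, adjusted p = 0.805).

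Both lines carried the sympathoadrenal markers that define the labelled cell type. All 12 markers had counts in both groups, none passed edgeR's test (1 had an unadjusted p under 0.05), and their summed level was 5345 to 6092 CPM in EV and 5171 to 5490 in shAMB. The largest parts of that sum in EV were MYCN (2194 CPM) and CHGA (1497). Marker lists of other cell types had lower sums in both lines, with 75.2 to 89.6 against 77.7 to 91.95 CPM for 8 fibroblast markers, 21.4 to 22.7 against 22.3 to 25.2 for 8 Schwann cell markers, 1.30 to 1.35 against 0.780 to 1.31 for 8 epithelial markers, and 1.97 to 2.85 against 2.12 to 2.67 for 9 blood and endothelial markers. Single members were expressed, with EV means of 34.5 CPM for PDGFRB, 27.6 for COL3A1 and 17.3 for PMP22. These lay above TH (9.39), the lowest sympathoadrenal marker. Total counts were 35115915 to 44579339 per library, and 16816 to 16978 genes had a count. The libraries of a group differed more in base composition than the groups did on average. Genes with at least 61.2% GC lay at a median of -0.44, -0.22 and 0.09 on the log2 scale in the 3 EV libraries and at -0.31, -0.54 and -0.29 in the 3 shAMB libraries, relative to the mean of all 18, and the first principal component of the 6 libraries, with 74.0% of the variance, ran within the groups.

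Few genes separated the lines. Of 14905 genes with enough counts to be tested, 227 passed an adjusted p of 0.05, which is 1.52% of those tested. The shAMB line was higher in 165 of them (1.11%) and lower in 62 (0.416%), and 1639 genes had an unadjusted p under 0.05. Most of the differences were small. The median size was 0.45 on the log2 scale, 140 genes differed by less than 1.5-fold, and the 40 with a difference of 2-fold or more were higher in 25 cases and lower in 15. The 3 shAMB libraries lay outside the range of the 3 EV libraries in all 227 genes, and among all genes tested they lay wholly above in 10.5% and wholly below in 7.51%. The calls were made on these same libraries, so this separation is no further support for them. When trends of each library on gene length and GC content were removed, 760 genes passed, 403 higher and 357 lower, so that the surplus of higher genes depended on this step. The count also rested on single libraries, falling to 135 without EV library 2, 125 without EV library 3, 126 without shAMB library 1 and 125 without shAMB library 2. It fell to 85 when only the 6 libraries compared entered the fit, without the other culture libraries that share the estimate of spread.

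**Figure D1:**
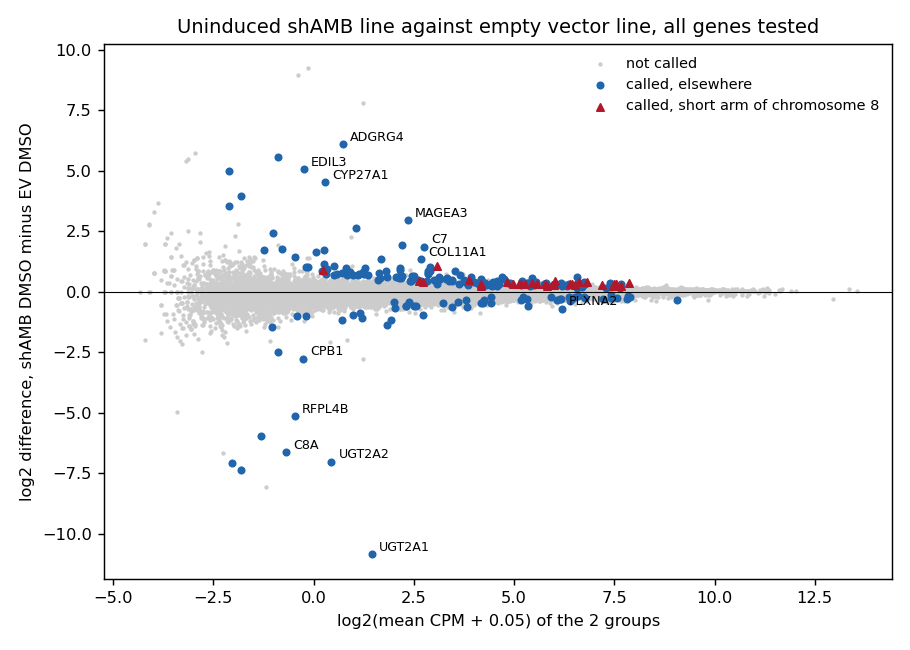
Log2 difference between the uninduced shAMB and EV lines (vertical axis) against the mean level of a gene on a log2 axis (CPM of both groups with 0.05 added). Grey points are genes not called, blue points called genes and red triangles called genes of the short arm of chromosome 8. Apart from a few genes near 0 counts in either line, the called genes lie close to the axis, with a median size of 0.45.

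The largest differences were genes read in one line and all but silent in the other. ADGRG4, an orphan adhesion G protein-coupled receptor at chrX:136300963-136416890 (GRCh38.p14), was at 0.0228, 0.0540 and 0.0577 CPM in EV and at 3.08, 3.28 and 3.18 CPM in shAMB. These levels rest on 5 counts in EV against 370 in shAMB, a ratio of 73.5 with a 95% interval of 31.2 to 228 that covers counting error only, since reads are not independent molecules. The gap was also far wider than the spread between libraries (log2 difference 6.10 ± 0.34, adjusted p = 3.80e-07). EDIL3 encodes a secreted matrix protein that binds integrins. It was at 0.0684, 0.0270 and 0.0288 CPM in EV and at 1.65, 1.43 and 1.55 CPM in shAMB, from 5 against 180 counts and a ratio of 35.7 (15.03 to 111.4, adjusted p = 7.61e-06). CYP27A1, a mitochondrial sterol hydroxylase of bile acid synthesis, stood at 0.0913, 0.108 and 0.0865 CPM in EV and at 2.19, 2.24 and 2.35 CPM in shAMB. That was 11 against 263 counts, a ratio of 23.7 (13.1 to 48.1, adjusted p = 6.94e-07). In the uninduced sh4 line the means were 0 CPM for ADGRG4, 0.0390 for EDIL3 and 0.111 for CYP27A1, so that the shAMB line stood apart from both other lines in these genes (adjusted p = 1.30e-07, 5.50e-06 and 6.79e-07 against sh4). Even in shAMB they were expressed at only a few CPM. These genes were chosen by their difference in the same shAMB libraries, so the p-values against sh4 are no independent support.

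MAGEA3, a cancer-testis antigen on chromosome X that is normally silent outside the germ line, was already detectable in EV. It was at 1.05, 1.13 and 1.27 CPM in EV and at 9.09, 8.01 and 9.68 CPM in shAMB, 2.96 ± 0.14 higher on the log2 scale (adjusted p = 1.23e-08). Its near-identical neighbour MAGEA6 was at 5.80, 6.88 and 6.69 CPM in EV and at 6.41, 5.61 and 5.94 in shAMB, with overlapping groups (adjusted p = 0.678). Reads could be split between these copies, so the division between them is uncertain. C7, a complement component of the membrane attack complex, was at 2.94, 2.99 and 2.65 CPM in EV and at 11.3, 9.67 and 10.5 CPM in shAMB, with no overlap and a log2 difference of 1.87 ± 0.11 (adjusted p = 2.09e-07). COL11A1, a fibrillar collagen chain, was at 3.51, 3.83 and 3.49 CPM in EV and at 9.17, 8.58 and 9.74 CPM in shAMB (log2 difference 1.34, adjusted p = 2.32e-05). LMO2, a transcriptional cofactor known from blood stem cells, rose from 0.502, 0.620 and 0.461 CPM to 1.31, 1.69 and 2.27 CPM (1.73, adjusted p = 0.000177).

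The remaining higher genes of the 15 with the largest differences were LOC100335030 (2.65 on the log2 scale), PDZRN3-AS1 (1.93), MYO5B, an unconventional myosin motor (1.67), C18orf42 (1.35), NR0B1, an orphan nuclear receptor of adrenal and gonadal development (1.16), PENK, the precursor of the enkephalin peptides (1.08), LPL, lipoprotein lipase (1.07), and BCL6B, a transcriptional repressor (1.04). PDZRN3-AS1 shares 70.2% of its length with another gene on the same strand. The calls of MYO5B, PENK and BCL6B were the least secure of this group. MYO5B no longer passed without EV library 1 or 3 or shAMB library 1 or 3 (adjusted p = 0.0514 to 0.0894), PENK without EV library 2 or shAMB library 1 or 3 (0.0740 to 0.115), and BCL6B without EV library 1 or 2 or shAMB library 3 (0.0532 to 0.0727).

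On the lower side, 4 genes with 133 to 628 counts in EV had 0 to 4 counts in shAMB. UGT2A1, a glucuronosyltransferase of the olfactory epithelium, was at 6.07, 5.37 and 4.70 CPM in EV and at 0 in each of the 3 shAMB libraries (adjusted p = 1.70e-06). With 628 counts against 0 it was at least 211-fold lower, when 3 counts over the group are taken as the limit that a count of 0 allows. UGT2A2, which shares 95.6% of its length with a same-strand neighbour and cannot be separated from UGT2A1, was at 2.26, 2.40 and 3.17 CPM in EV and at 0.0246, 0 and 0.0267 in shAMB. C8A, a further component of the membrane attack complex, was at 1.37, 0.998 and 1.04 CPM in EV and at 0, 0.0260 and 0 in shAMB, from 133 counts against 1 (ratio 134, 23.6 to 5331). RFPL4B was at 1.37, 1.38 and 1.18 CPM in EV and at 0.0493, 0 and 0.0535 in shAMB, from 152 counts against 4 (ratio 38.3, 14.7 to 142). CPB1, a pancreatic carboxypeptidase, had 1.53, 1.27 and 1.30 CPM in EV and 0.0986, 0.416 and 0.0802 in shAMB (log2 difference -2.77, adjusted p = 0.000529). The uninduced sh4 line was near 0 in these genes too, with means of 0.0192 CPM for UGT2A1, 0.0389 for UGT2A2, 0 for C8A, 0.0645 for RFPL4B and 0.0488 for CPB1. The sh4 values were set against the same EV libraries and are no independent support. Further genes below the level set for naming, chosen after their values were seen, showed the same kind of pattern, with 55 counts in EV against 0 in shAMB for SI, an intestinal disaccharidase, 45 against 0 for DSG3, a desmosomal cadherin, and 2 against 113 for CCDC141.

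The other lower genes had levels that could be read in both lines. PLXNA2, a semaphorin receptor subunit, was the most abundant, at 81.5, 86.6 and 103 CPM in EV and at 60.1, 50.0 and 57.7 CPM in shAMB (log2 difference -0.69 ± 0.13, adjusted p = 0.0110). Its groups did not overlap, but the call was lost without EV library 3 (adjusted p = 0.0710) or shAMB library 2 (0.0790). TKTL1, a transketolase-like gene, was at 5.02, 5.10 and 5.39 CPM in EV and at 2.86, 1.98 and 2.17 in shAMB (-1.14, adjusted p = 0.000414). SYCP2, a protein of the meiotic synaptonemal complex, was at 9.19, 8.71 and 8.16 CPM in EV and at 4.71, 4.63 and 4.12 in shAMB (-0.95, adjusted p = 0.000172). SCART1 (-1.37), ZNF215 (-1.09), PGM5P3-AS1 (-0.99), the chemokine receptor ACKR3 (-0.96), the cell adhesion protein OPCML (-0.88) and SLFNL1-AS1 (-0.67) completed the list together with SNORD3A (-1.17), the U3 small nucleolar RNA. SNORD3A was read beside a share of small RNA genes of 0.793% to 1.11% of counts in EV and 0.737% to 0.842% in shAMB, and the part of that share in its difference was not tested. Leaving out a library ended the call of PGM5P3-AS1 for all but EV library 3 and shAMB library 2 (adjusted p = 0.0504 to 0.113), that of ACKR3 for all but EV library 1 (0.0621 to 0.157), and those of OPCML (0.0509 to 0.104) and SLFNL1-AS1 (0.0900 to 0.198) for all but shAMB library 3.

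**Figure D2:**
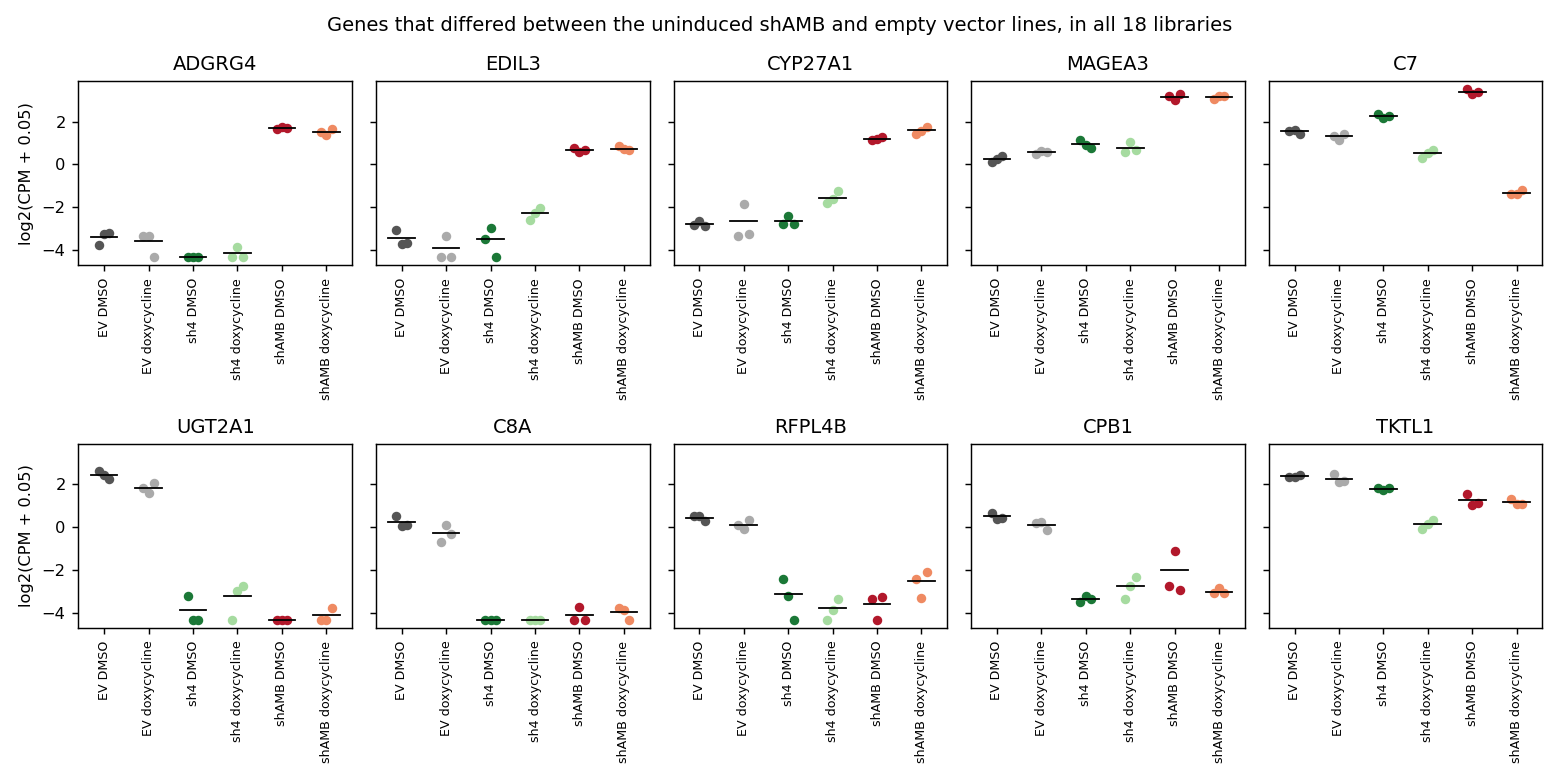
Level of 10 genes in all 18 culture libraries (log2 axis, CPM with 0.05 added), by line and treatment. Points are libraries and bars group means. ADGRG4, EDIL3 and CYP27A1 were high in shAMB with and without doxycycline, UGT2A1, C8A, RFPL4B and CPB1 were read mainly in EV, and C7 was high in uninduced shAMB but not in shAMB with doxycycline.

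The DNA before the start of 3 higher and 3 lower genes is shown, chosen after the sequences were seen as examples of stretches with many and with few CG dinucleotides. Each sequence is the 250 bases before the annotated start of the gene on its own strand, from RefSeq (GRCh38.p14), with CG dinucleotides, the sites of DNA methylation, in capitals. The stretches lie at chr5:84384881-84385130 on the minus strand for EDIL3, chr2:218781897-218782146 on the plus strand for CYP27A1, chrX:152698544-152698793 on the plus strand for MAGEA3, chr4:69653248-69653497 on the minus strand for UGT2A1, chr1:56854547-56854796 on the plus strand for C8A and chr3:148827561-148827810 on the plus strand for CPB1.
EDIL3: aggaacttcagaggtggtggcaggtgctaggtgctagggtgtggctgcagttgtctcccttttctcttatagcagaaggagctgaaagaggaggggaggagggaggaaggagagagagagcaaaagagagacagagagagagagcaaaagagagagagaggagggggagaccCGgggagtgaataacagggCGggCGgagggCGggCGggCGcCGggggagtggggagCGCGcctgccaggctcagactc
CYP27A1: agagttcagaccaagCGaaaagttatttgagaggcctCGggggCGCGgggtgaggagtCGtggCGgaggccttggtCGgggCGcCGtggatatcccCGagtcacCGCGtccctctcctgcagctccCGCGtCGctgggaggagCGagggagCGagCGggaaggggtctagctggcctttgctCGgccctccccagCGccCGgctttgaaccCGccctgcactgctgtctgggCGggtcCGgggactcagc
MAGEA3: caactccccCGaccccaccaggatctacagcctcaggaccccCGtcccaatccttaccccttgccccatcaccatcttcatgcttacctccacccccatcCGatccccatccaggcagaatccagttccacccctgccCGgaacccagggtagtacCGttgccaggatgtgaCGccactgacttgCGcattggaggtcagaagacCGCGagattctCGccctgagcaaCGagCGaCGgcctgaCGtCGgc
UGT2A1: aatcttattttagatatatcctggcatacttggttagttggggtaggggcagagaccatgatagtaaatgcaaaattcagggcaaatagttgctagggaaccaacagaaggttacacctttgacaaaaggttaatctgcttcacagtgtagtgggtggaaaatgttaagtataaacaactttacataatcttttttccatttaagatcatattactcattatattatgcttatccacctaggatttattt
C8A: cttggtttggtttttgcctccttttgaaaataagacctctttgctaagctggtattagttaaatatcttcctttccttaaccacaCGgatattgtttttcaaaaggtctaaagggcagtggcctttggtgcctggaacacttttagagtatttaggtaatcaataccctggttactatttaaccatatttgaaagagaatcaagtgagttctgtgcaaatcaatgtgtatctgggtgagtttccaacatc
CPB1: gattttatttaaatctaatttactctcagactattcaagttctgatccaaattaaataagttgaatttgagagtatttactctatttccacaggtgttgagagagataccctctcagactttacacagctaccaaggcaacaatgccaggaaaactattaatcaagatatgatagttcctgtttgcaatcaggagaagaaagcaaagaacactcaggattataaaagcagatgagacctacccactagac

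The 3 higher genes held 9 (EDIL3), 24 (CYP27A1) and 15 (MAGEA3) CG dinucleotides in these stretches, and the 3 lower genes held 0 (UGT2A1), 1 (C8A) and 0 (CPB1). Other named genes did not follow this division, with 2 in PDZRN3-AS1, 2 in C7 and 7 in C18orf42 among the higher genes, and 13 in TKTL1 and 12 in ZNF215 among the lower. Promoter sequence from 250 bases before to 50 after the start was matched for 11806 of the 14905 genes tested, for 97 of the 165 higher genes and for 45 of the 62 lower genes. All 97 belonged to the 134 higher genes that lie outside the short arm of chromosome 8. The ratio of observed to expected CG dinucleotides had a median of 0.831 in all, 0.664 in the higher and 0.715 in the lower genes, and lay under 0.5 in 1773 of all, 37 of the higher (38.1%) and 13 of the lower promoters (28.9%). CG-poor promoters were more frequent in both called sets than among all genes (15%). Among the genes named for their large differences they were 4 of 9 matched higher and 6 of 12 matched lower promoters. The letters TATAAA, the core of the TATA box, stood on either strand in 5.94% of all, 13.4% of the higher and 17.8% of the lower promoters. Of 3 other motifs searched on both strands, whose matches may overlap, the MYC-type E-box CACGTG was in 10.1%, 8.25% and 8.89%, the RUNX core TGTGGT in 9.42%, 9.28% and 17.8%, and the E-box CAGATG in 9.92%, 12.4% and 17.8%. A match describes letters only, and no test was made.

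The differences were not spread evenly over the genome. The short arm of chromosome 8, a region noticed after the values were seen, held 185 tested genes from 208344 to 43202855 (GRCh38.p14), of which 31 were higher in shAMB and 0 lower. That is 16.8%, against 0.899% higher among 14351 genes on the other chromosomes. The shift was small and broad. The median log2 difference of the arm was 0.21 (1.16-fold), its middle range ran from 0.10 to 0.30, 165 of the 185 genes (89.2%) lay above 0, and in 101 (54.6%) all shAMB libraries lay above all EV libraries, against 10.5% of all genes tested. On the long arm of the chromosome, where RUNX1T1 lies, 5 of 318 genes were higher and 1 lower, with a median of 0.03, and on all other chromosomes the median was -0.01. Neighbouring genes on an arm are not independent samples, and the arm was not tested as a set.

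**Figure D3:**
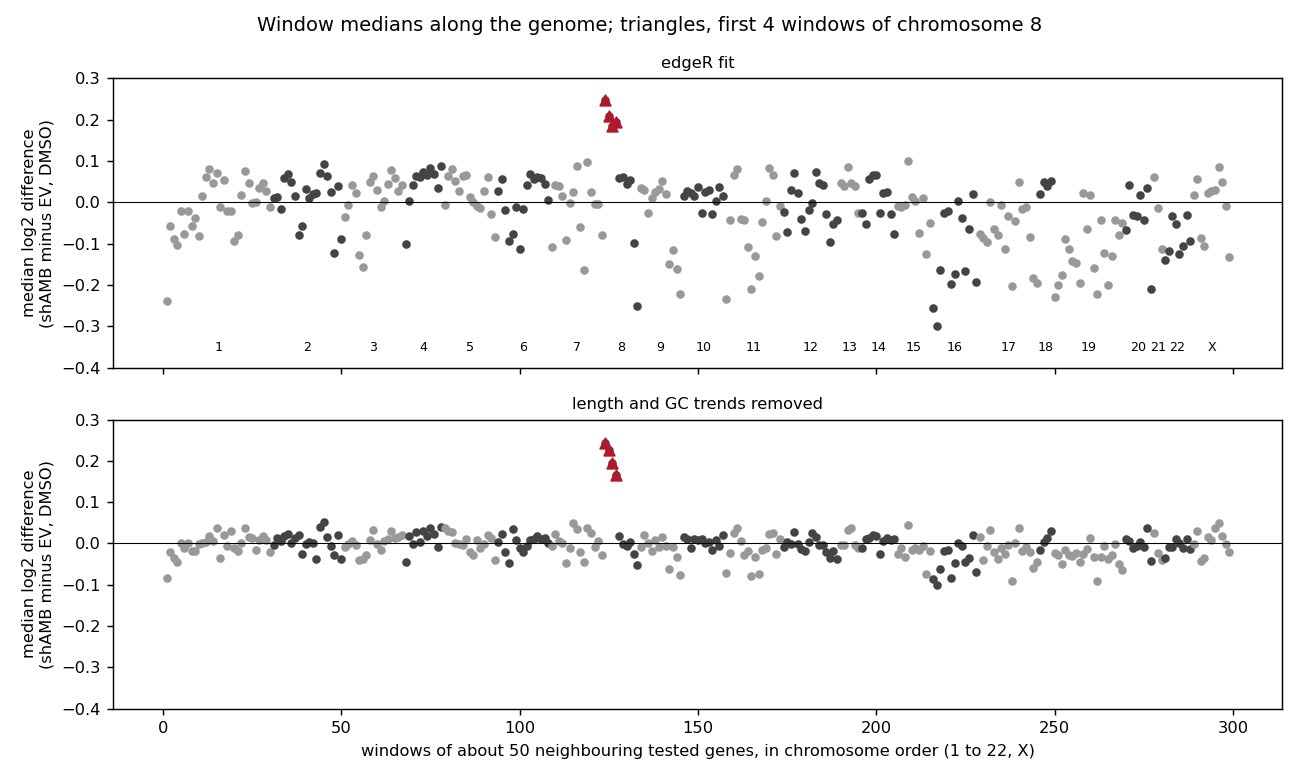
Median log2 difference (shAMB minus EV, DMSO) in 299 windows of about 50 neighbouring tested genes in chromosome order, in the edgeR fit (top) and with length and GC trends removed (bottom). The first 4 windows of chromosome 8 (red triangles) lie at 0.19 to 0.25 in the top panel, above all 295 others, which reach 0.10. The last of the 4 also holds genes of the long arm.

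Window by window, the first 4 windows of chromosome 8 had medians of 0.25, 0.21, 0.19 and 0.19, and the other 295 windows of the genome ran from -0.30 to 0.10. The last of the 4, from 38176855 to 55826445, also holds genes of the long arm, whose tested genes begin at 47189307. With length and GC trends removed these windows had 0.24, 0.23, 0.20 and 0.17, and the others ran from -0.10 to 0.05. Most of the spread among the other windows moved with base composition, with a Spearman correlation of -0.923 between a window's median and its GC content over 295 windows that share the same libraries, given as a description. The arm itself did not depend on that step, since 76 of its genes were higher and 0 lower with the trends removed. Leaving out libraries in turn moved the median of the arm only between 0.20 and 0.23. The number of its genes called higher was less firm, at 18 without EV library 2, 15 without EV library 3, 16 without shAMB library 1, 19 without shAMB library 2, 21 without shAMB library 3 and 31 without EV library 1, with 0 lower in each. With only the 6 libraries compared in the fit, 11 of 176 genes were higher and 0 lower, at a median of 0.204.

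The called genes of the arm have varied roles and were named after their values were seen, apart from LPL and the members of the gene lists. TNFRSF10B, the death receptor of the TRAIL ligand and a p53 target, was at 74.8, 74.8 and 75.2 CPM in EV and at 95, 91.6 and 95.4 CPM in shAMB (log2 difference 0.33 ± 0.04, adjusted p = 9.49e-05). XPO7, a nuclear transport receptor, was at 168, 162 and 168 CPM in EV and at 208, 203 and 204 CPM in shAMB (log2 difference 0.30 ± 0.04, adjusted p = 0.000378). DPYSL2, a microtubule-binding protein of growing axons, was at 134, 130 and 135 CPM in EV and at 160, 159 and 162 CPM in shAMB (log2 difference 0.27 ± 0.03, adjusted p = 0.000135). In each of these genes the groups were narrow and clearly apart. NEFL and NEFM, the light and medium neurofilament chains, were higher by 0.46 and 0.31, with NEFL at 53.4, 54.4 and 56.2 CPM in EV and at 76.3, 76.7 and 71.9 in shAMB. LPL stood out from the arm with 5.34, 5.80 and 5.07 CPM in EV and 11.6, 11.9 and 10.5 in shAMB. Among the rest, DUSP4, a MAP kinase phosphatase, differed by 0.50, TUSC3, an oligosaccharyltransferase subunit, by 0.41, ATP6V1B2, a proton pump subunit, by 0.37, SFRP1, a secreted Wnt antagonist, by 0.32 and FDFT1, squalene synthase, by 0.25. CSMD1 differed by 0.88, but the uninduced sh4 line lay higher still, 1.98 above EV (adjusted p = 4.59e-05). INTS9 (0.26 in shAMB and 0.30 in sh4) and GPAT4 (0.27 and 0.29) also passed in sh4 against EV. Most called genes of the arm did not pass there.

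Each library can also be placed on its own. Over 134 genes of the arm with a mean of at least 5 CPM, the median level relative to the EV DMSO mean, minus the same median of the other chromosomes, was between -0.0094 and 0.0046 on the log2 scale in the EV DMSO libraries and 0.21, 0.23 and 0.19 in the shAMB DMSO libraries. The groups did not overlap. The sh4 DMSO libraries lay at 0.0090 to 0.043, just above EV. With doxycycline the EV libraries lay at -0.026 to -0.0050 and the shAMB libraries at 0.08 to 0.14, above EV again, and the sh4 libraries lay at 0.07 to 0.10, overlapping shAMB. The shAMB libraries thus lay above both other lines with DMSO, and with doxycycline above EV but not apart from sh4.

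**Figure D4:**
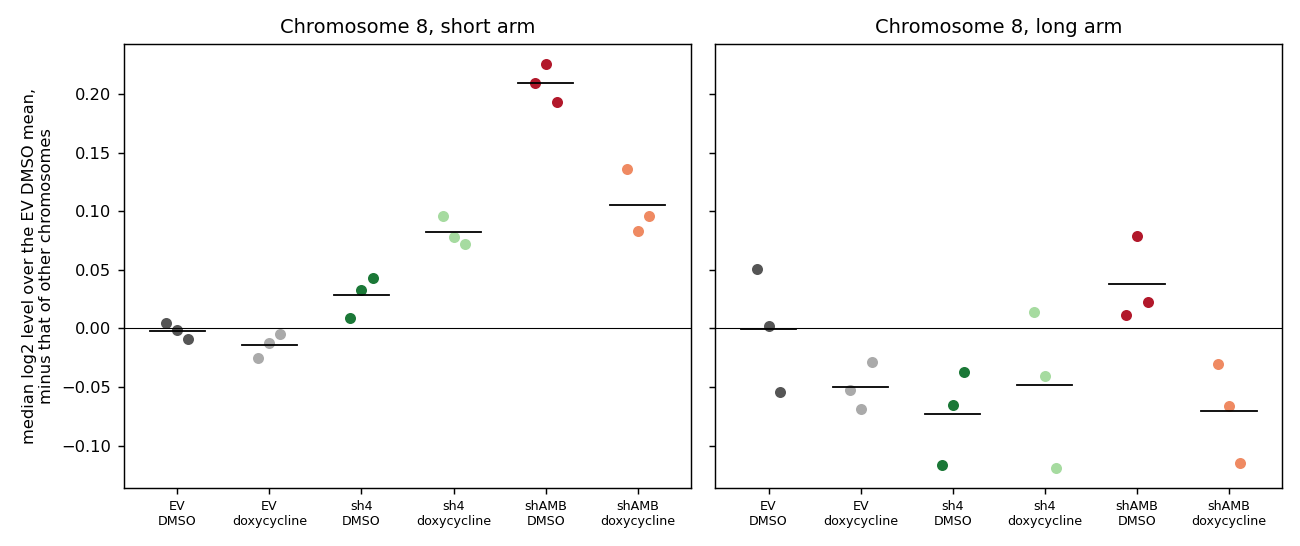
Median log2 level of genes on the short arm (left) and long arm (right) of chromosome 8 in each culture library, relative to the EV DMSO mean and minus the same median of the other chromosomes. Points are libraries and bars group means. On the short arm the 3 shAMB DMSO libraries lie at 0.19 to 0.23, above all other libraries, and on the long arm the group means lie between -0.07 and 0.04.

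Of the 39 gene lists examined, 22 held at least 1 called gene and 17 held none. No gene passed edgeR's test among 18 tested genes of the RUNX1T1 co-repressor complex, 11 of the MYC network, 29 MYC targets, 15 of the catecholamine pathway, 39 of E2F-driven replication, 24 interferon-stimulated genes, 13 of MHC class I presentation, 17 of microRNA processing, 25 immediate early and NF-kappaB genes, 23 of the ATF4 response, 33 imprinted genes or 26 sodium and calcium channels. At an unadjusted p under 0.05 these lists held 1, 4, 0, 4, 2, 2, 2, 3, 2, 2, 6 and 4 genes in the same order. With 1.52% of all genes tested called, a count of 0 in lists of this size is near the background and is no result about these programs. Their median log2 differences ran from -0.11 (MHC class I presentation) to 0.04 (MYC targets), beside a median of -0.01 over all genes tested.

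In the adrenergic and mesenchymal lists a minority of genes were called. As for the lists that follow, the share of all genes tested that were called was 1.52%. In a small list 1 or 2 called genes already exceed that share, as with 9.09% of the adrenergic transcription factors. The lists were not tested as sets, so that no result about a list is read from such counts. Of 22 adrenergic transcription factors 1 was higher and 1 lower, with a median of -0.03. SOX4, a factor of neural progenitors, was at 99.9, 96.5 and 94.5 CPM in EV and at 113, 114 and 108 in shAMB (0.21, adjusted p = 0.0147), a call that was lost without EV library 2 or 3 or shAMB library 1 or 2. Of 24 mesenchymal state genes 4 were higher and 1 lower, with a median of 0.04. TWIST1, a mesenchymal transcription factor, was at 47.8, 48.4 and 47.5 CPM in EV and at 63.9, 65.0 and 57.8 in shAMB (0.38, adjusted p = 0.00365). VIM (0.32), the Hippo effector YAP1 (0.47) and the matrix protein POSTN (0.99) were higher too, whereas FN1, fibronectin, was lower at 74.2, 72.2 and 79.1 against 58.4, 55.8 and 64.5 CPM (-0.34, adjusted p = 0.0103). The call of VIM was lost in 5 of the 6 fits that left out a library, all but the one without shAMB library 2, and that of FN1 without EV library 3 or shAMB library 1 or 2. POSTN was lost in each of the 6 fits (adjusted p = 0.0626 to 0.202) and YAP1 without EV library 2 or 3 or shAMB library 1. TWIST1 and FN1 no longer passed when length and GC trends were removed.

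Neuronal genes moved in both directions. Of 29 genes of neuronal differentiation 3 were higher and 2 lower, with a median of -0.02. DCX, a microtubule protein of migrating neurons, was at 67.8, 61.9 and 58.9 CPM in EV and at 83.1, 84.4 and 77.8 in shAMB (0.38, adjusted p = 0.00356), beside NEFL and NEFM. SYN2, a synaptic vesicle protein, was at 21.2, 21.2 and 22.5 CPM in EV and at 16.2, 15.6 and 15.7 in shAMB (-0.45 ± 0.05, adjusted p = 0.000228). Of 17 granins and neuropeptides 3 were higher and 0 lower, namely VIP at 8.49, 8.01 and 7.47 against 12.2, 11.7 and 11.8 CPM (0.57, adjusted p = 0.00510), NPY (0.48) and PENK (1.08), and the list had a median of 0.12. Of 34 glutamate, GABA and nicotinic receptor genes GABRA5 (0.64) and GRIN3A (0.81) were higher, and of 59 potassium channel genes KCNAB1, an accessory subunit, was higher at 22.02, 19.9 and 18.97 against 29.96, 32.9 and 30.7 CPM (0.62, adjusted p = 0.000159). Of 46 axon guidance genes 0 were higher and 2 lower, PLXNA2 and the secreted ligand SLIT2 (-0.45). Leaving out a library ended the call of NPY for all but shAMB library 1 (adjusted p = 0.0757 to 0.128), that of GRIN3A for EV library 2 (0.0550), and those of PENK and PLXNA2 for the libraries already named.

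Among receptors and secreted signals the lines differed in single genes. Of 24 growth factor receptors 1 was higher and 3 lower, with a median of -0.14. EGFR was at 22.1, 18.7 and 21.0 CPM in EV and at 15.4, 14.95 and 15.2 in shAMB (-0.44 ± 0.07, adjusted p = 0.00254), and the GDNF co-receptor GFRA1 (-0.29) and the neurotrophin-3 receptor NTRK3 (-1.44) were lower too, while PDGFRA (0.44) was higher. PDGFRA also stood in the fibroblast list, whose other 4 tested genes did not pass. Of 44 Wnt and Notch genes 2 were higher and 0 lower, both secreted Wnt antagonists. DKK1 was at 79.8, 74.0 and 70.8 CPM in EV and at 112, 120 and 115 in shAMB (0.63 ± 0.07, adjusted p = 0.000101), and SFRP1 is on the short arm of chromosome 8. Of 28 collagens COL11A1 was higher and COL6A6 lower, at 51.1, 47.9 and 46.6 against 32.3, 32.2 and 32.0 CPM (-0.60, adjusted p = 0.000101). Of 13 complement genes C7 was higher and C8A lower. The call of PDGFRA was lost when any library but EV library 2 was left out (adjusted p = 0.0654 to 0.0874) and that of NTRK3 without EV library 3 or shAMB library 1 or 2 (0.0505 to 0.0627).

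Cancer-testis antigens went both ways. Of 26 tested 1 was higher, MAGEA3, and 3 were lower, CTAG2 (-2.50) and the copies XAGE1B and XAGE1E (-0.57), which had the same values in every library and count as a single measurement. Of 448 zinc finger genes 5 were higher and 3 lower (1.79% against 1.52% of all genes tested), of 219 solute carriers SLC1A2 (0.86), a glutamate transporter, and SLC39A14 (0.23) were higher, of 52 clustered protocadherins PCDHB10 was higher (0.25), and of 14 HOX genes HOXD13 was higher, at 41.6, 39.9 and 39.9 against 52.0, 55.3 and 53.1 CPM (0.40, adjusted p = 0.000661). Of 26 other cadherins CDH11 was higher (0.17) and CDH13 lower (-0.57). TNFRSF10B was the single called gene of 28 p53 targets, FDFT1 of 25 genes of cholesterol synthesis and HK2, a hexokinase, of 29 genes of hypoxia and glycolysis (-0.23). Of 38 genes of G2 and mitosis MKI67, the proliferation antigen, was the only one called, at 625, 568 and 593 CPM in EV and at 480, 476 and 462 in shAMB (-0.33, adjusted p = 0.0161). That list had a median of 0.05, and the call of MKI67 was lost in 5 of the 6 fits that left out a library, all but the one without EV library 2. Calls were also lost for CTAG2 without EV library 3 or shAMB library 2 or 3, for XAGE1B with any library but EV library 1 left out, for PCDHB10 in each of the 6 fits, for CDH11 without EV library 1 or 2 or shAMB library 1 or 3, and for FDFT1 without EV library 2 or 3 or shAMB library 1 or 2 (adjusted p = 0.0546 to 0.187 over these genes).

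The lines were next compared in the libraries with doxycycline, which share none with the DMSO comparison but in which the hairpin is induced, so that they are no repeat of the same condition. There 8711 genes passed (58.4%), 4705 of them higher in shAMB (31.6%) and 4006 lower (26.9%). Of the 165 genes higher with DMSO, 93 (56.4%) were also higher with doxycycline, 43 (26.1%) were lower and 29 were not called. The 93 genes are 1.98% of all genes higher with doxycycline. Of the 62 genes lower with DMSO, 40 (64.5%) were also lower, 16 (25.8%) were higher and 6 were not called, and the 40 are 0.999% of the genes lower with doxycycline. The shares called in the same direction were above the background, with 56.4% beside 31.6% for the higher and 64.5% beside 26.9% for the lower genes. The shares called in the opposite direction were not, with 26.1% beside 26.9% and 25.8% beside 31.6%. Both comparisons come from 1 fit with a shared estimate of spread. Genes called with DMSO may therefore pass more readily with doxycycline in either direction. The share over all genes is then no fair background, and nothing is read from the excess over it. The difference between the lines changed with doxycycline (interaction term) in 105 of the 165 and in 35 of the 62, beside 45.5% of all genes tested. These genes were chosen by the DMSO difference that the term subtracts, so that nothing is read from these counts.

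**Figure D5:**
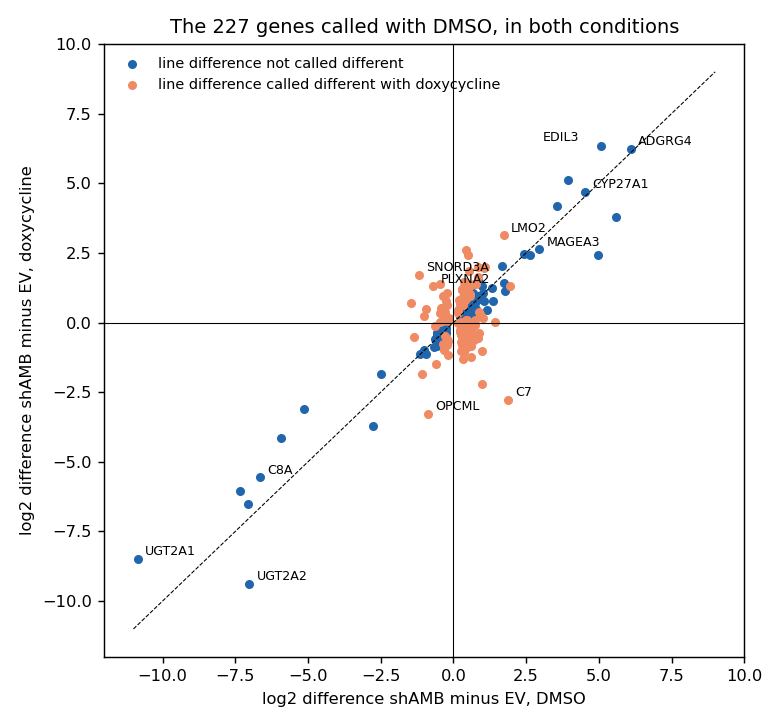
Log2 difference between shAMB and EV with doxycycline (vertical axis) against that with DMSO (horizontal axis) for the 227 genes called with DMSO. The dashed line marks equal values, and orange points are genes whose line difference changed with doxycycline. ADGRG4, CYP27A1 and MAGEA3 lie close to the dashed line at the upper right, and EDIL3 lies above it (5.07 with DMSO and 6.33 with doxycycline). UGT2A1 (-10.85 and -8.49), UGT2A2 (-7.02 and -9.37) and C8A (-6.63 and -5.55) lie at the lower left but off the line, with few or no counts in shAMB. C7 lies on the other side of 0.

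The genes that were all but silent in either line differed in the same direction with doxycycline. With doxycycline the group means were 0.0335 CPM in EV and 2.82 in shAMB for ADGRG4, 0.0168 and 1.62 for EDIL3, 0.111 and 2.96 for CYP27A1 and 1.44 and 8.91 for MAGEA3, each called higher. UGT2A1 was at 3.53 CPM in EV and 0.00769 in shAMB, UGT2A2 at 1.93 and 0, C8A at 0.780 and 0.0133, RFPL4B at 1.04 and 0.124 and CPB1 at 1.03 and 0.0746, each called lower. COL11A1 (1.24 on the log2 scale with doxycycline), TKTL1 (-1.12) and SYCP2 (-1.14) also had values close to those with DMSO. Other genes did not. C7 was higher in uninduced shAMB and, at means of 2.44 CPM in EV and 0.354 in shAMB, lower with doxycycline (-2.78), and PLXNA2, lower without doxycycline, was at 91.7 and 227 CPM with it (1.31). SNORD3A turned from -1.17 to 1.72. On the short arm of chromosome 8, 88 of 185 genes (47.6%) were higher with doxycycline and 35 lower. Of all genes tested 31.6% were higher and 26.9% lower. The median of the arm was 0.24 against 0.06 over all genes tested, and leaving out a library moved it between 0.20 and 0.26. The first 4 windows of the chromosome had medians of 0.42, 0.36, 0.17 and 0.09. Over the 134 genes of at least 5 CPM, relative to other chromosomes, the shAMB libraries averaged 0.21 with DMSO and 0.105 with doxycycline. The EV libraries averaged -0.002 and -0.014. On that measure, which uses fewer genes, the shift of the arm was smaller with doxycycline. Of the 31 genes of the arm called higher with DMSO, 14 were called higher and 14 lower with doxycycline, and 3 were not called. The lower ones included XPO7 (-0.27 on the log2 scale), DPYSL2 (-0.46), NEFL (-0.50), NEFM (-0.69) and SFRP1 (-0.18), and TNFRSF10B, at 0.03, did not pass. With length and GC trends removed, the first 4 windows of chromosome 8 ranked 1, 6, 29 and 92 of 299 by their median with doxycycline, and the window that ranked 2 was on the long arm. The window that ranked 92 holds genes of both arms. In xenografts labelled RUNX1T1 knock-out against control xenografts, 41.1% of 15960 genes passed. Of the 165 higher genes 162 were tested there, of which 48 were higher and 45 lower in those labelled knock-out, and of the 62 lower genes 53 were tested, of which 10 were lower and 11 higher. Per the paper, KELLY xenografts carried an inducible hairpin, and the mice were fed doxycycline or control food. Both xenograft groups would then be the same line, so that a difference between shAMB and EV cannot be seen there. Nothing about the line difference is read from these counts.

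The other uninduced hairpin line was set beside these values. The uninduced sh4 line differed from EV in 167 genes (1.12%), from 75 to 80 without sh4 library 1 or 2 or EV library 1 or 2 and 269 without EV library 3, and shAMB differed from sh4 in 5445 (36.5%). The latter count rested on the libraries used. It fell to 77 without sh4 library 1, 244 without sh4 library 2, 277 without shAMB library 1 and 95 without shAMB library 2, and the GC-rich genes lay at 0.52 in sh4 library 1 and at -0.54 in shAMB library 2. For MAGEA3 the sh4 mean was 1.87 CPM, 0.71 above EV on the log2 scale (adjusted p = 0.0252), and for C7 it was 4.74 CPM, 0.73 above EV (adjusted p = 0.00288), both under the levels of shAMB. Several genes described above also passed in sh4 against EV, including DKK1 (0.40 in sh4 and 0.63 in shAMB), NEFL (0.26 and 0.46), KCNAB1 (0.54 and 0.62), DCX (0.40 and 0.38), GABRA5 (0.73 and 0.64), TNFRSF10B (0.16 and 0.33), EGFR (-0.31 and -0.44), GFRA1 (-0.30 and -0.29), COL6A6 (-0.55 and -0.60), CDH13 (-0.41 and -0.57), SYCP2 (-0.90 and -0.95) and OPCML (-0.99 and -0.88). DPYSL2 (0.14 in sh4 and 0.27 in shAMB), PGM5P3-AS1 (-1.06 and -0.99) and the copies XAGE1B and XAGE1E (-1.02 and -0.57) passed as well. Others did not pass in sh4, among them TWIST1 (0.15, adjusted p = 0.164), FN1 (0.03, adjusted p = 0.760), PLXNA2 (-0.15, adjusted p = 0.407), COL11A1 (0.36, adjusted p = 0.155), LPL (0.29, adjusted p = 0.154) and SYN2 (-0.20, adjusted p = 0.0846). Both comparisons use the same EV libraries, so that the values stand side by side only. The short arm of chromosome 8 had a median of 0.04 in sh4 against EV.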

How the data were processed

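Per the labels, libraries of KELLY cell RNA were made with a kit for stranded total RNA, although polyA RNA is given as the molecule. The submitters' processing notes name STAR, SAMtools, RSEM and the build hg38, whose versions for these KELLY libraries are not given in the sources used here, nor whether strand was used in counting. The authors deposited RSEM expected counts, which are estimated counts per gene that need not be whole (91.8% were), and TPM, transcript abundance that the authors scaled for gene length and library. Neg in a column header was taken to mean DMSO and Pos doxycycline, and groups came from sample titles alone. No replicate columns were identical.

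Expected counts of the 18 culture libraries were rounded and entered 1 fit in edgeR 4.0.16 (R 4.3.3), with filterByExpr, TMM scaling, a mean per group and the two-sided quasi-likelihood F test, adjusted by Benjamini-Hochberg over the 14905 genes that passed the filter. A gene was called at an adjusted p under 0.05. The 8 xenografts were fitted alone. The median biological coefficient of variation was 0.115. Errors after ± are approximate standard errors, the size of the log2 difference divided by the square root of the F statistic. The confidence interval of RUNX1T1 was built from the same value. For genes near 0 counts these errors are rough. Ratios for genes near 0 have exact 95% intervals for counting error only. The script was tested on simulated counts. Alternatives used DESeq2 1.42.0, limma 3.58.1 on log2(TPM + 0.5), other scalings and filters, a replicate block and libraries left out in turn. Positions and promoters came from RefSeq (GRCh38.p14), in which 26339 of 26485 genes were placed, and chromosome arms were split at the widest step between gene starts. Overlaps between the exons of genes and the GC content of transcripts came from GENCODE.

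The genes and lists were chosen with earlier results of these data known. Among called genes whose groups did not overlap and whose higher group had a mean of at least 1 CPM, the 15 with the largest log2 difference in each direction were named, besides RUNX1T1, MYCN and called members of the lists. Some called list members are counted but not reported here by name.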

Additional observations from a re-analysis of the deposited data

Results flagged for a closer look

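The difference between the lines was compared between doxycycline and DMSO by the interaction term of the edgeR fit, as log2 difference with doxycycline minus that with DMSO. Of the 32 named genes 13 passed an adjusted p of 0.05, beside 6776 of all genes tested (45.5%). In 4 of them, C7, SNORD3A, PLXNA2 and ACKR3, a called difference in one direction stood against a called difference in the other. All but RUNX1T1 and MYCN were chosen by the DMSO difference that the term subtracts. With doxycycline the hairpin is induced, so that these values compare an induced with an uninduced line and not repeats of the same condition. Groups of 3 libraries are too small to look for outlying samples.

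In C7 the term was -4.66 (adjusted p = 3.23e-11), the largest of the 13, since the gene was higher in shAMB with DMSO and lower with doxycycline. In OPCML it was -2.39 (adjusted p = 7.36e-06), in ZNF215 -0.76 (adjusted p = 0.00902) and in PDZRN3-AS1 -0.61 (adjusted p = 0.0202). OPCML and ZNF215 were lower in shAMB in both conditions and more so with doxycycline, and PDZRN3-AS1 was higher in both and less so with doxycycline.

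A positive term was found in SNORD3A (2.90, adjusted p = 7.00e-08), PLXNA2 (2.00, adjusted p = 4.12e-07), ACKR3 (1.45, adjusted p = 0.000726) and SCART1 (0.85, adjusted p = 0.0134), which were lower in shAMB with DMSO. The first 3 of these were higher with doxycycline. LMO2 (1.41, adjusted p = 0.000824), BCL6B (0.91, adjusted p = 0.0123) and PENK (0.91, adjusted p = 0.0255) were higher in shAMB in both conditions and more so with doxycycline. MYCN (1.5006, adjusted p = 3.88e-08) and RUNX1T1 (0.21, adjusted p = 0.0353) were not called with DMSO and were higher in shAMB with doxycycline.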

How the results depend on the processing

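The number of genes called between the uninduced lines, 227, was 172 to 294 under RLE size factors, no filter, a mean of at least 1 CPM, DESeq2 and TPM with limma, and moved to 760 with length and GC trends removed, 40 with a log2 difference of at least 1 required and 85 with only the 6 libraries in the fit, which ended the calls of 34 of 76 named genes and list members. Leaving out a library gave 125 to 188. With the replicate number as a block it was 210. The numbers did not pair the libraries, since deviations of same-numbered libraries correlated at -0.466, 0.147 and 0.666 over 10514 genes, and the block ended the calls of 4 of the 76. Of the 227 genes, 49 of 165 higher and 18 of 62 lower were called in each of 13 alternatives. These leave out the required log2 difference of at least 1 and the filter of a mean of at least 1 CPM.

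Other counts that moved were 2045 for the lines with doxycycline and 569 for shAMB against sh4 at a log2 difference of at least 1, and for sh4 against EV 351 with DESeq2, 684 with the trends removed, 34 at a log2 difference of at least 1 and 23 with only their 6 libraries. Leaving out a library gave 7859 to 8222 with doxycycline, 77 to 6492 against sh4 and 75 to 269 for sh4 against EV. The median of the short arm of chromosome 8, whose alternatives were added after the data were seen, was 0.2002 without a filter, 0.1878 in TPM and 0.203 to 0.2294 with a library left out. RUNX1T1 stayed uncalled, at -0.0796 to 0.002 with a library left out. Over the 76 genes and 1127 values none changed sign and 227 no longer passed. The cause of each change was not tested.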
